A study of Arabidopsis thaliana with 4 samples.

Results

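Genes for small secreted cysteine-rich and signalling peptides were examined in Arabidopsis thaliana seedlings of 4 genotypes: the trichomeless mutants gl1, ttg1 and gl3egl3, and wild type. The genes were chosen by symbol: RALF, RALFL, LCR, CLE, SCRL, RTFL, DVL or LTP followed by a number, or a name starting with PDF1, PDF2 or THI2 and a dot. Of the 13350 genes named by a probe set of 1 gene, 32 fitted this rule, with 1 probe set each. They are 11 RALFL, 8 LCR, 6 CLE, 3 PDF1, 2 PDF2 and 2 THI2 genes; the other 5 symbol families had no named member here.

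The study sought trichome-enriched transcripts by comparing plants without these leaf hairs with wild type, and holds 1 deposited column per genotype, called an array here. The mutated genes encode parts of one transcription factor complex: a MYB protein (GL1), a WD40 protein (TTG1) and the related bHLH proteins GL3 and EGL3. All plants grew in long days (16 h light, 8 h dark) at 22 °C, and cDNA was amplified from 25 ng of total RNA. Seedlings of ttg1, gl3egl3 and wild type were 20 days old per the labels, which give no age for gl1 and restrict the tissue to green parts for all but gl3egl3. For ttg1 and gl3egl3 they name the L.er (Landsberg erecta) wild type as the comparison, and for gl1 and wild type no accession, so accession and genotype cannot be told apart in those arrays. The series text gives gl3egl3 another second gene than the sample title, which was followed. Because each genotype has 1 array, differences of one mutant from wild type are given without replicate error and without p-values.

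Secreted peptides leave the cell and act on receptors of neighbouring cells or on microbes. Defensins (PDF and LCR genes) and thionins (THI2 genes) are folded by disulfide bridges between cysteines, and many are toxic to fungi or bacteria; PDF1.2 is a classic marker of the jasmonate and ethylene defence response in leaves. CLE genes encode precursors of short signalling peptides that bind leucine-rich repeat receptor kinases in meristems and vascular tissue. RALF peptides bind FERONIA and related receptor kinases, raise the pH of the cell wall space and restrain cell growth.

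Values are log2 probe set signals, quantile normalized between the 4 arrays. In bulk tissue, fewer cells of a type and less RNA per cell cannot be told apart. Before this normalization the arrays did not share one distribution: the median was 6.40 in gl1, 6.33 in ttg1, 6.38 in gl3egl3 and 5.93 in wild type, and the lowest value was 3.50 in gl3egl3 and at most 2.46 in the others. A probe set passed the level filter if at least 1 of its 4 values was 6.26 or more, the median of the whole table; 16 of the 32 peptide genes and 12601 of 22746 probe sets did. RCA, the Rubisco activase gene of green tissue, was at 12.21 in gl1, 12.23 in ttg1, 12.30 in gl3egl3 and 12.19 in wild type. It was the 1 of 15 green tissue markers named here. PYK10, of roots and seedlings, was at 11.34, 11.18 and 10.91 in gl1, ttg1 and gl3egl3 and 11.18 in wild type, while the root hair gene EXPA7 was at most 3.39 in any array. EXPA18, a second root hair gene below the level filter, was at 5.11 in gl1, 4.27 in ttg1 and 3.89 in gl3egl3, against 5.34 in wild type, and its part in the results below was not tested.

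CLE44 (AT4G13195) was lower in ttg1 and gl3egl3. It was the 1 peptide gene that limma called when these arrays were set against gl1 and wild type. CLE44 passed the level filter only through gl1 and wild type, the high side of that contrast. The call was lost without the level filter, the gl1 array or the wild-type array, as were those of all other probe sets. PDF1.2 and PDF1.2b, RALFL28 and RALFL31 had values at least 2-fold above wild type in gl3egl3, and PDF2.1 a value at least 2-fold below it. In gl1, no peptide gene past the level filter lay 2-fold from wild type in either direction; over all probe sets past the filter 0.968% were that much higher and 1.90% that much lower. In ttg1 none was 2-fold higher (1.79% of all probe sets) and 2 of 16 were 2-fold lower (3.78% of all). In gl3egl3, 4 of 16 were 2-fold higher (6.63% of all) and 2 of 16 were 2-fold lower (7.37% of all). These are counts of few genes and were not tested as a group. Among the genes higher in gl3egl3, RALFL28 passed the filter through that array alone. The PDF1.2b probe set may also bind PDF1.2 transcripts, so these are not separate measurements. The median difference of the 16 from wild type was -0.27 in gl1, -0.26 in ttg1 and 0.26 in gl3egl3, where the median of all probe sets past the filter was 0.01, 0.04 and 0.02. The 3 comparisons share the wild-type array.

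**Figure D1:**
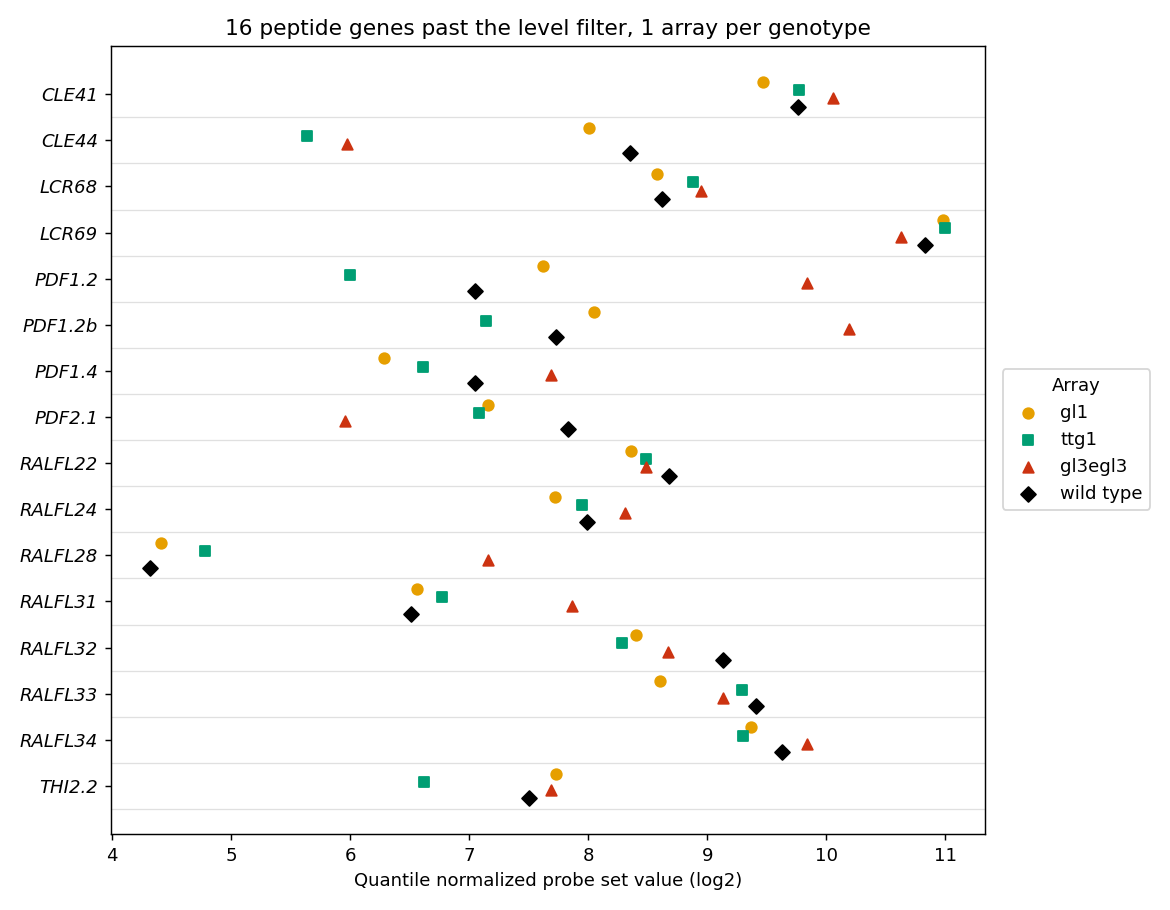
Quantile normalized value (log2, x axis) of each of the 16 peptide genes past the level filter (rows), with 1 point for each of the 4 arrays. CLE44 lies at 5.64 in ttg1 and 5.97 in gl3egl3, apart from 8.01 in gl1 and 8.35 in wild type, and PDF1.2 spans 6.00 in ttg1 to 9.84 in gl3egl3.

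Among the CLE genes, CLE44 and CLE41 (AT3G24770) both encode TDIF, a peptide made in phloem that binds the receptor kinase PXY (TDR), keeps vascular stem cells dividing and holds back xylem formation. CLE44 was at 5.64 in ttg1 and 5.97 in gl3egl3, against 8.01 in gl1 and 8.35 in wild type. The ranges of these 2 pairs of arrays do not overlap, and 2.03 (log2) separates the nearest values. The share of all probe sets that split this way was not counted, so the split alone does not set CLE44 apart. Against wild type its value was 6.54-fold lower in ttg1, 5.18-fold lower in gl3egl3 and 1.27-fold lower in gl1. CLE41 showed no such split: it was at 9.47 in gl1, 9.77 in ttg1 and 10.06 in gl3egl3, against 9.76 in wild type.

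With ttg1 and gl3egl3 set against gl1 and wild type, CLE44 fell by 2.37 ± 0.25 (log2, SE), which is 5.18-fold, with a limma adjusted p of 0.031 over 12601 probe sets. CLE44 was the only one of the 16 peptide genes called in this fit, where 0.381% of all probe sets were called lower and 0.0397% higher. The p-value measures only the spread between these 4 arrays, with 2 arrays on each side. The call was lost without the level filter (limma adjusted p = 0.082), where 0 of all 22746 probe sets were called. It was also lost, with every other call, without the gl1 array or without the wild-type array. Those fits leave 1 array on 1 side, so no p-value is given for them. The limma difference of CLE44 stayed between -2.54 and -2.20 in all of these fits. CLE44 passed the level filter through gl1 and wild type, the high side of this contrast. The TDIF receptor gene PXY is not among the genes named here, and its relatives PXL1 and PXL2 lay in every array within the range of the bacterial control probe sets described below. The arrays where CLE44 was low are those whose labels name the L.er wild type as the comparison. For gl1 and wild type the labels name no accession, so accession and genotype cannot be told apart here. A sequence difference under the CLE44 probes was not tested.

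The other 4 CLE genes did not pass the level filter. CLE40, a regulator of the root meristem, was at 3.23 in gl1, 3.40 in ttg1 and 3.30 in gl3egl3, against 3.95 in wild type. CLE21, CLE26 and CLE27 differed from wild type by -0.17 to 0.20 in the 3 mutants. All 4 genes thus lay within 2-fold of wild type in every mutant on this scale. They were within the range of the bacterial controls described below, where a lower level could not be seen. In the deposited values CLE21, CLE26 and CLE27 were 1.09, 1.34 and 1.12 (log2) above wild type in gl3egl3. There, 57.7% of all probe sets not past the filter were at least 2-fold higher.

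PDF1.2 (AT5G44420) was at 7.62 in gl1, 6.00 in ttg1 and 9.84 in gl3egl3, against 7.05 in wild type. The gl3egl3 value was 6.93-fold above wild type and 2.23 (log2) above the next highest array, while the ttg1 value was 2.07-fold below wild type. PDF1.2b (AT2G26020), a close copy of PDF1.2, followed the same order, at 8.05 in gl1, 7.14 in ttg1 and 10.19 in gl3egl3, against 7.73 in wild type. Its gl3egl3 value was 5.53-fold above wild type. The PDF1.2b probe set carries the array maker's mark for probes that may bind related transcripts, so the signals of PDF1.2 and PDF1.2b are not independent.

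PDF1.4 (AT1G19610), a further defensin gene, was at 6.28 in gl1, 6.61 in ttg1 and 7.69 in gl3egl3, against 7.05 in wild type. It too had its highest value in gl3egl3, but within 2-fold of wild type. LCR67 (AT1G75830), which RefSeq also lists as PDF1.1, was at 3.87 in gl1, 4.05 in ttg1 and 5.89 in gl3egl3, against 3.95 in wild type. The gl3egl3 value was 1.94 (log2) above wild type, although LCR67 did not pass the level filter. All 4 defensin genes with a PDF1 name thus had their highest value in gl3egl3. This array was the highest of the 4 for 34.4% of all probe sets past the level filter and 32.4% of those not past it.

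**Figure D2:**
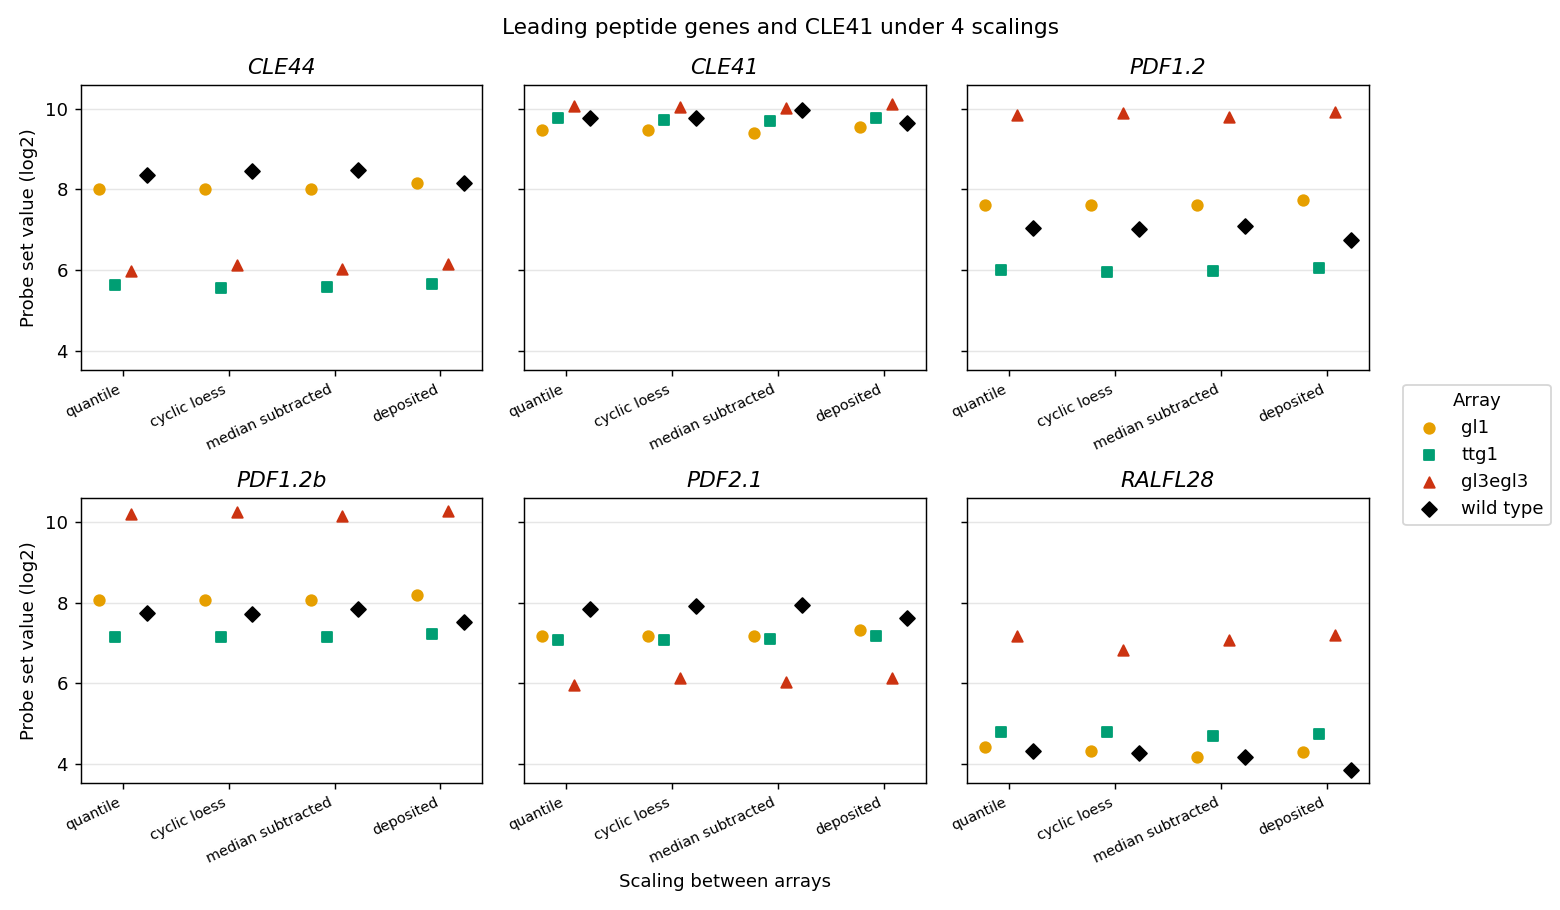
Probe set value (log2, y axis) of 6 peptide genes in each of the 4 arrays (points) under 4 scalings between arrays (x axis). The gap of gl3egl3 over ttg1 for PDF1.2 is 3.80 to 3.95 under the 4 scalings, and CLE44 differs from wild type by -2.90 to -2.50 in ttg1.

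In gl3egl3, PDF2.1 (AT2G02120) lay on the other side of wild type from the PDF1 genes. It was at 7.16 in gl1, 7.08 in ttg1 and 5.96 in gl3egl3, against 7.83 in wild type. All 3 mutant values were below wild type, and that of gl3egl3 was 3.66-fold below it. Across the 3 mutants the mean difference was -1.10 ± 0.67 (SD, n = 3 mutants), and limma did not call it (adjusted p = 0.86).

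In the RefSeq gene order of assembly TAIR10.1, PDF2.1 is next to LCR68 (also PDF2.3), with LCR72 (PDF2.6) and LCR69 (PDF2.2) a few genes away on chromosome 2. LCR68 (AT2G02130) was at 8.58 in gl1, 8.88 in ttg1 and 8.95 in gl3egl3, against 8.62 in wild type. LCR69 (AT2G02100) was at 10.98 in gl1, 11.00 in ttg1 and 10.63 in gl3egl3, against 10.83 in wild type. In gl3egl3 LCR68 and LCR69 differed from wild type by 0.33 and -0.20, against -1.87 for PDF2.1. LCR72 stayed between 3.51 and 3.63 in the 4 arrays, within the range of the bacterial controls, where a lower level could not be seen. PDF2.5, on chromosome 5, did not pass the filter and differed from wild type by -0.27 to 0.28.

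Among the remaining LCR genes, none passed the level filter. LCR80 was at 3.48 in gl1, 3.66 in ttg1 and 4.52 in gl3egl3, against 3.42 in wild type, with gl3egl3 the highest array. LCR24 differed from wild type by 0.90 in gl3egl3 and by 0.06 in ttg1, and LCR59 and LCR66 (PDF2.4) differed by -0.30 to 0.40 in the 3 mutants.

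**Figure D3:**
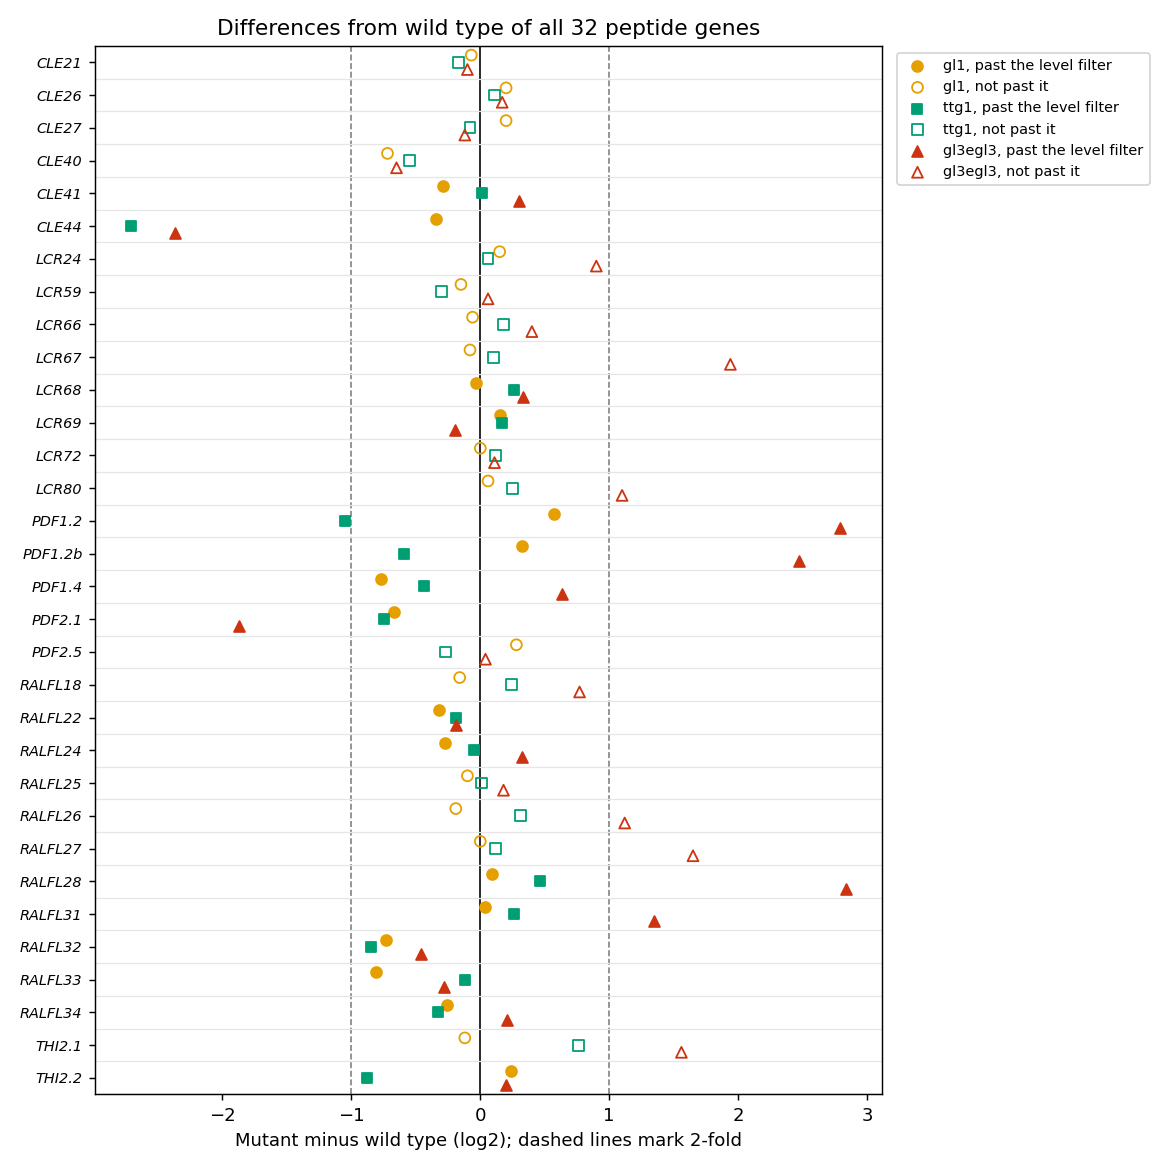
Mutant minus wild type (log2, x axis) for each of the 32 peptide genes (rows), with a point for each of gl1, ttg1 and gl3egl3; filled points passed the level filter and open points did not. Dashed lines mark 2-fold, and in gl3egl3 9 of the 32 genes lie at or beyond the upper line and 2 beyond the lower. The 9 were 19 in the deposited values, 12 after subtraction of array medians and 7 after cyclic loess, and the 2 were 2 under each. On the plotted scale, 6.63% of all probe sets past the filter and 5.91% of those not past it were 2-fold higher. The shares 2-fold lower were 7.37% and 4.06%. Of all probe sets not past the filter, 57.7% were 2-fold higher in the deposited values, 22.0% after subtraction of array medians and 5.22% after cyclic loess.

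Of the 11 RALFL genes, 7 passed the level filter. RALFL28 (AT4G11510) was at 4.41 in gl1, 4.78 in ttg1 and 7.16 in gl3egl3, against 4.32 in wild type. It passed the filter through gl3egl3 alone. Its wild-type value lay within the range of the bacterial controls, and against the highest of these in wild type the gl3egl3 value was at least 5.25-fold higher. RALFL31 (AT4G13950) was at 6.56 in gl1, 6.77 in ttg1 and 7.86 in gl3egl3, against 6.51 in wild type, which is 2.54-fold in gl3egl3. In both genes gl1, ttg1 and wild type lay within 0.46 (log2) of each other, and gl3egl3 stood alone at the top.

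RALFL32 (AT4G14010) was at 8.40 in gl1, 8.28 in ttg1 and 8.67 in gl3egl3, against 9.13 in wild type. It was the peptide gene with the smallest p against wild type, with a mean difference of -0.68 ± 0.20 (SD, n = 3 mutants) that limma did not call (unadjusted p = 0.052, adjusted p = 0.86). RALFL33 (AT4G15800) was at 8.60 in gl1, 9.29 in ttg1 and 9.13 in gl3egl3, against 9.41 in wild type. Both genes were highest in wild type, and all differences were under 2-fold.

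RALFL34 (AT5G67070), a peptide of lateral root initiation that binds the receptor kinase THESEUS1, was at 9.37 in gl1, 9.30 in ttg1 and 9.84 in gl3egl3, against 9.63 in wild type. RALFL22 was at 8.36 in gl1, 8.49 in ttg1 and 8.49 in gl3egl3, against 8.68 in wild type. RALFL24 was at 7.72 in gl1, 7.95 in ttg1 and 8.31 in gl3egl3, against 7.99 in wild type. These 3 genes stayed within 0.33 (log2) of wild type in every mutant.

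The RALFL genes not past the filter were RALFL18, RALFL25, RALFL26 and RALFL27. RALFL27 was at 4.27 in gl1, 4.39 in ttg1 and 5.92 in gl3egl3, against 4.27 in wild type, and its gl3egl3 value was 1.65 (log2) above wild type. RALFL26 was at 4.17 in gl1, 4.67 in ttg1 and 5.47 in gl3egl3, against 4.36 in wild type, a difference of 1.12 in gl3egl3. Its chromosome 3 neighbour RALFL25, with 1 gene between them in RefSeq, differed from wild type by 0.18 in gl3egl3, and RALFL18 by 0.77. All 4 had their highest value in gl3egl3.

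The thionin gene THI2.1 (AT1G72260), inducible by jasmonate, was at 3.71 in gl1, 4.58 in ttg1 and 5.39 in gl3egl3, against 3.83 in wild type. Its value was 1.56 (log2) above wild type in gl3egl3 and 0.76 above it in ttg1, and it did not pass the level filter. THI2.2 (AT5G36910) was at 7.73 in gl1, 6.62 in ttg1 and 7.69 in gl3egl3, against 7.50 in wild type. THI2.2 therefore was lowest in ttg1, and its gl3egl3 value lay within 0.20 (log2) of wild type, unlike that of THI2.1.

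Low values were set beside 27 control probe sets for bacterial genes, placed on the same scale. These controls lay between 3.01 and 4.79 in gl1, 2.86 and 4.49 in ttg1, 2.95 and 4.35 in gl3egl3, and 3.04 and 4.77 in wild type. All 16 peptide genes not past the filter were within the controls' range in gl1 and in wild type, and 14 of 16 in ttg1. In gl3egl3, 10 were within it and 6 above it: LCR67, LCR80, RALFL18, RALFL26, RALFL27 and THI2.1. Against the highest control in wild type, the gl3egl3 value was at least 2.18-fold higher for LCR67, 2.22-fold for RALFL27, 1.63-fold for RALFL26 and 1.54-fold for THI2.1, and that of LCR80 did not exceed it. Controls differed from wild type by -0.76 to 0.27 in gl3egl3, and 8 of the 16 genes exceeded the upper end. The share of all probe sets not past the filter that exceeds the controls was not counted. These counts against the controls therefore do not set the peptide genes apart. In gl3egl3, 5 of the 16 were at least 2-fold above wild type and none 2-fold below, against 5.91% and 4.06% of the 10145 probe sets not past the filter; no test was made of this count. The 5 were 15 in the deposited values (57.7% of all such probe sets), 8 after subtraction of array medians (22.0%) and 3 after cyclic loess (5.22%). In the deposited values the same controls were 0.50 to 1.53 above wild type in gl3egl3, so differences of low genes in this array depend on the scaling. The gap between 3' and 5' actin control probes was also widest in this array, at 4.23, against 3.65 in gl1, 3.74 in ttg1 and 3.56 in wild type. The pollen gene AT59, the 1 named of 18 flower, pollen and seed markers, was at 3.37 in gl1, 4.02 in ttg1 and 3.66 in gl3egl3, against 3.98 in wild type. The part of scaling and of RNA quality in the gl3egl3 values was not tested.

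**Figure D4:**
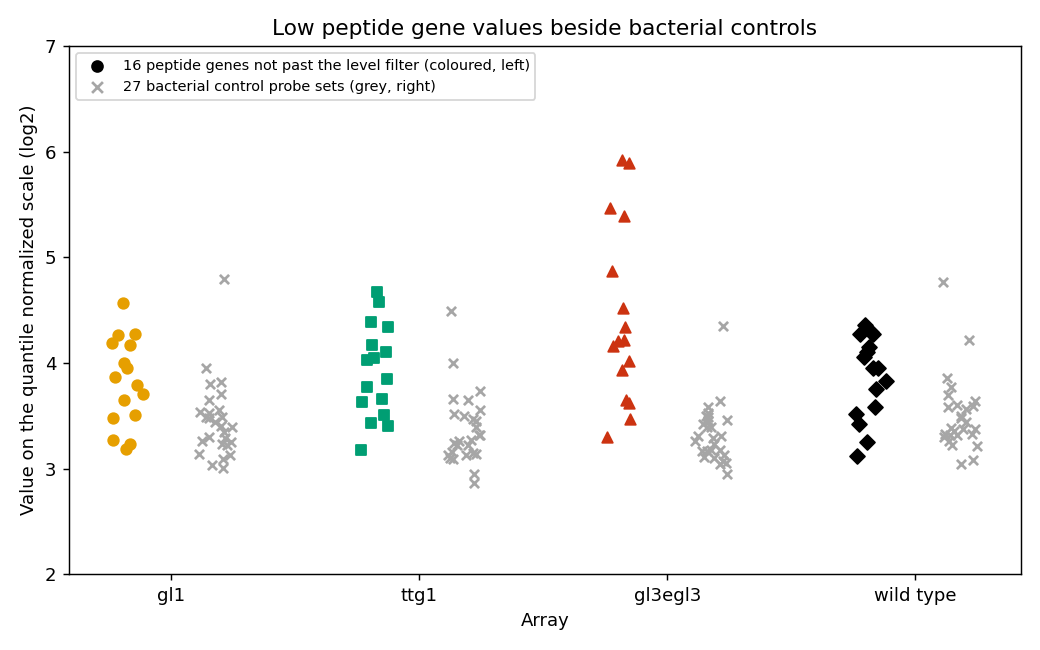
Values (log2, y axis) of the 16 peptide genes not past the level filter (coloured points) and of 27 bacterial control probe sets on the same scale (grey crosses), for each array (x axis). In gl3egl3, 6 of the genes lie above the highest control, at 4.35, and in gl1 and wild type none does. The share of all probe sets not past the filter that lies above the highest control was not counted.

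With all 3 mutants set against wild type, the comparison that the study's purpose implies, limma called 0 of the 16 peptide genes and 0 of 12601 probe sets (0%). At an unadjusted p under 0.05 it gave 0 of the 16 and 643 (5.10%) of all. With no probe set called, this fit sets no peptide gene apart from the rest, and a p that misses the threshold does not show that a gene did not differ. This fit takes its spread from the differences among the 3 mutants and assumes the same spread for the 1 wild-type array. CLE44, PDF2.1, RALFL22, RALFL32 and RALFL33 were below wild type in all 3 mutants, and RALFL28 and RALFL31 above it. Over all probe sets past the filter, 24.9% were below wild type in all 3 and 30.0% above.

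Without the ttg1 array, the second fit sets gl3egl3 against gl1 and wild type. With 1 array against 2, only limma differences are given here. They are listed for the 6 peptide genes past the filter and at least 2-fold from wild type in any mutant. The differences were -2.2 (log2) for CLE44, -1.54 for PDF2.1, 2.51 for PDF1.2, 2.31 for PDF1.2b, 2.79 for RALFL28 and 1.32 for RALFL31. These genes were picked by size in the same arrays, so the sizes are no separate result. The lone gl3egl3 array has no measured spread of its own there. RALFL28 passed the level filter only through gl3egl3, CLE44 only through gl1 and wild type, and PDF2.1 through every array but gl3egl3. The differences of these genes are thus partly set by the filter. With ttg1 in the fit, limma adjusted p-values were 0.57 for PDF2.1, 0.91 for PDF1.2, 0.83 for PDF1.2b, 0.58 for RALFL28 and 0.62 for RALFL31.

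Genes that act with these peptides were few among the named ones. Of 47 entries for jasmonate and ethylene defence, 4 are named and 3 passed the filter: MYC3, EIN3 and OSM34. None lay 2-fold from wild type, including the osmotin gene OSM34, whose difference from wild type (6.99) was 0.79 for gl1, -0.79 for ttg1 and -0.19 for gl3egl3. OSM34 had its lowest value in ttg1, as PDF1.2 and THI2.2 did, but not the high gl3egl3 value of PDF1.2. In ttg1 the other named genes of this list went the other way: MYC3, EIN3 and MYC4 were 0.17, 0.21 and 0.51 (log2) above wild type. MYC4, a jasmonate response factor gene that did not pass the filter, was at 5.12 in gl1, 4.64 in ttg1 and 5.42 in gl3egl3, against 4.14 in wild type. The salicylate list had SAG101 alone, within 2-fold of wild type.

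Receptors and partners of RALF and CLE peptides had 8 of 44 entries named and 3 past the filter, none of them 2-fold from wild type. FER, the RALF receptor FERONIA, was at 8.72 in gl1, 8.70 in ttg1 and 8.76 in gl3egl3, against 8.40 in wild type. THE1, the receptor of RALFL34, was at 9.07 in gl1, 9.39 in ttg1 and 7.73 in gl3egl3, against 8.66 in wild type, and so was lowest in gl3egl3, where RALFL34 was highest. CR4, the CLE40 receptor kinase gene also called ACR4, differed by -0.08 to 0.40.

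Of other secreted peptides, only STOMAGEN, which promotes stomata, is named, at 10.93 in gl1, 10.30 in ttg1 and 10.78 in gl3egl3, against 10.70 in wild type. In the list of wax, cutin and lipid transfer, 4 of 45 entries are named and 3 passed the filter. WSD1, a wax ester synthase gene, was at 5.60 in gl1, 5.87 in ttg1 and 6.93 in gl3egl3, against 5.74 in wild type. It passed the filter through gl3egl3 alone, the array where it was 1.19 (log2) above wild type. Of all probe sets past the filter, 6.63% were at least 2-fold higher there. FDH and the cytochrome P450 gene LCR (no relation to the peptide family) stayed under 2-fold. Limma called no gene of these 5 lists in either fit.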

How the data were processed

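Per the submitters' processing notes the authors used RMA, which corrects background, normalizes and summarises probes, with version and settings not given in the sources used here. Deposited values are log2, 1 per probe set and array, for 22810 probe sets, of which 64 controls were left out. All wild-type values are multiples of 0.005 and those of the other arrays are not, so that column may hold 1 array or a mean.

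Values were quantile normalized with limma 3.58.1 in R 4.3.3. Platform annotation, updated through Entrez numbers to RefSeq (TAIR10.1), named 13513 probe sets with 1 gene, 503 with several and left 8730 unnamed; 13436 matched RefSeq, as did 30 of the 32 peptide genes. Control probe sets were placed on the normalized scale by interpolation.

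The size rule was 2-fold. Both contrasts were fitted with lmFit and eBayes over all probe sets past the level filter, with Benjamini-Hochberg adjustment at 0.05, and tested on simulated data. Named with all values are PDF1.2, THI2.1, genes 2-fold from wild type, the highest-mean gene per family and called genes; other peptide genes were added for completeness. The symbol rule uses no values, but its families and the lists were chosen with earlier results of these data known. The labels do not say whether samples came from separate cultures, so p-values reflect only how these 4 samples vary, which may be technical, and the number of arrays limits precision.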

Additional observations from a re-analysis of the deposited data

Results flagged for a closer look

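In 2 peptide genes past the level filter, gl3egl3 and ttg1 lay on opposite sides of wild type and at least 2-fold apart, with at least 1 of the mutants 2-fold or more from wild type. For PDF1.2 the distance between gl3egl3 and ttg1 was 3.84 (log2), at 2.79 above wild type in gl3egl3 and -1.05 from it in ttg1. For PDF1.2b it was 3.06, at 2.47 above wild type in gl3egl3 and -0.59 from it in ttg1. PDF1.4 and THI2.2 also had these mutants on opposite sides, 1.08 and 1.07 apart, but each mutant within 2-fold of wild type. With 1 array a genotype, these differences were not tested. The share of all probe sets that meet this rule was not counted, so the count of 2 does not set the peptide genes apart. The distance was 3.86 and 3.05 for PDF1.2 and PDF1.2b in the deposited values. The PDF1.2b probe set may also bind PDF1.2 transcripts.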

How the results depend on the processing

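In the deposited values the median difference of the peptide genes from wild type reversed to 0.03 in gl1, and was -0.03 in ttg1 and 0.47 in gl3egl3, with 1 gene 2-fold lower in ttg1. After cyclic loess the medians were -0.29, -0.32 and 0.22 in gl1, ttg1 and gl3egl3. After subtraction of array medians they were -0.44, -0.43 and 0.02, with 1 gene 2-fold lower in gl1. Over all probe sets past the filter, the median difference was 0.34, 0.29 and 0.30 in the deposited values and -0.14, -0.11 and -0.17 after subtraction of array medians. Without the level filter the medians over 32 genes were -0.08 in gl1 and -0.02 in ttg1. In gl3egl3, 9 of the 32 were 2-fold higher, against 6.63% of all probe sets past the filter and 5.91% of those not past it. Without this filter 0 peptide genes and 0 of all 22746 probe sets were called in the second fit. With the stricter filter, which fewer genes pass, the medians over 11 genes were -0.19 in ttg1 and 0.21 in gl3egl3, with 2 genes 2-fold higher and 1 lower in gl3egl3. Over all probe sets past the filter, such 2-fold shares were not counted with the stricter filter, the deposited values or array medians subtracted. Those counts therefore do not set the peptide genes apart. Leaving out 1 array at a time, limma called 0 to 5 peptide genes with ttg1 and gl3egl3 against gl1 and wild type, and 0 with the 3 mutants against wild type. Every one of these fits leaves 1 array on 1 side, and that array has no measured spread of its own. The highest count came from the fit without ttg1, which sets gl3egl3 alone against gl1 and wild type. It is thus no result for ttg1 and gl3egl3 together, and these counts do not set the peptide genes apart. Each gene had 1 probe set, so averaging probe sets changed nothing. Of the 13 differences of at least 2-fold, none reversed; 12 stayed 2-fold in the deposited values (PDF1.2 in ttg1 was then at -0.71), 11 after cyclic loess (LCR80 at 0.95 and RALFL26 at 0.97 in gl3egl3) and 13 after subtraction of array medians. No paired analysis was possible because each genotype has 1 array. The causes of these shifts were not tested. Signal near that of the bacterial controls limits what low genes can show.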
